A study of Mus musculus with 12 samples.

Results

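Genes of the Wnt pathway were read in fully grown mouse oocytes of 3 Marf1 genotypes. The genes were taken by symbol, namely the numbered Wnt, Fzd, Dvl, Dkk and Sfrp families together with 16 named coreceptors, secretion factors, destruction complex parts, beta-catenin and TCF or LEF factors, which gave 56 of the 24254 genes in the deposited table. The rule uses symbols and no levels, although earlier results of these data were known when it was written. Wildtype oocytes (WT) were set beside those of a Marf1 gene trap (GTMut) and of a further Marf1 mutant, D272 in the labels (D272Mut), each on the C57BL/6 strain at 3 weeks of age. Each group had 4 RNA-seq libraries, and oocytes of all 3 were collected at the germinal vesicle stage 46 h after the mice received 5 IU of PMSG, a hormone that makes follicles grow. A library pooled 80 oocytes, and the labels do not tie libraries to mice, so each p-value covers only library-to-library spread, which may be technical. The labels do not state zygosity.

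Wnt proteins are secreted lipid-modified ligands that bind Frizzled receptors and, in the beta-catenin branch, the coreceptors LRP5 and LRP6. Without ligand, a destruction complex of Axin, APC and the kinases GSK3 and CK1 marks beta-catenin for breakdown, and with ligand, Dishevelled helps to halt that complex, so that beta-catenin reaches TCF and LEF factors in the nucleus. In the ovary the pathway is best known from granulosa cells and from early gonad development, and beta-catenin in the oocyte also serves cell adhesion. MARF1 is an RNA-binding protein with a ribonuclease fold that mouse oocytes need to resume meiosis.

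Levels are FPKM, a fragment number divided by transcript length and library size, given as the mean ± SD of 4 libraries. Being per length, they allow a rough comparison between genes, but differences in amplification or coverage between genes were not examined. Log2 fold changes were fitted to log2(FPKM + 1), carry the limma standard error and understate the change of low genes. Depth relative to the deepest library, from the step that 1 fragment makes in low genes, overlapped among genotypes (WT 0.613 to 0.944, GTMut 0.556 to 1, D272Mut 0.444 to 0.836). The targeted gene, Marf1, was lowest in the gene trap at 1.43 ± 0.13 FPKM and highest in D272Mut at 53.1 ± 1.0, with WT at 25.8 ± 0.63. The oocyte genes Gdf9, Bmp15 and Dppa3 led the oocyte marker list in all 3 genotypes, with Gdf9 at 5592 ± 49, 4544 ± 162 and 4319 ± 46. The 14 oocyte markers summed to 12393 to 12478 FPKM over WT libraries, 10612 to 11066 over GTMut and 10435 to 10592 over D272Mut, with 2 higher and 9 lower in GTMut and 3 and 8 in D272Mut. The higher markers included Ddx4 and Nobox, of which Ddx4 stood at 11.8 ± 1.0, 79.6 ± 2.8 and 73 ± 6.3 and Nobox at 193 ± 6.9, 289 ± 7.7 and 366 ± 8.3. Of 20 granulosa and cumulus markers, 8 in WT, 6 in GTMut and 7 in D272Mut had a mean of at least 1 FPKM. Their summed level was 158 to 162 FPKM over WT libraries, 251 to 273 over GTMut and 220.3 to 234 over D272Mut. Serpine2 (112 ± 2.7, 107 ± 3.7 and 83.2 ± 6.3) and Nr5a2 (26.5 ± 0.98, 134 ± 5.5 and 118 ± 1.7) led that list. Next came Cyp19a1 in WT (11.7 ± 1.2, 4.9 ± 0.49 and 6.53 ± 0.77) and Kitl in the mutants (2.63 ± 0.46, 11.7 ± 1.3 and 11.6 ± 0.81). Of the 11 tested granulosa markers 3 were higher and 4 lower in GTMut, and 4 and 4 in D272Mut. Fshr was among the lower ones in both mutants, at 1.26 ± 0.25 in WT, 0.179 ± 0.15 in GTMut and 0.3 ± 0.23 in D272Mut. Fshr and Foxl2 reached at most 1.53 and 0.453 FPKM in any of the 12 libraries, less than several other markers of that list. Of 21 markers of other ovarian and blood cells the sum was 35.7 to 38.9, 26.7 to 31.8 and 36.3 to 42.6, with Insl3 at 0 throughout. The highest were Pecam1 (20.7 ± 1.1, 11.4 ± 0.39 and 11.7 ± 1.3), Krt8 (5.29 ± 0.71, 8.24 ± 1.6 and 16.6 ± 2.4) and Upk3b (4.04 ± 0.48, 2.62 ± 0.79 and 3.57 ± 0.65). Of the 10 tested, 1 was higher and 2 lower in GTMut, and 1 and 1 in D272Mut. Of all tested genes 38.3% were higher and 39.2% lower in GTMut, and 36.3% and 39.5% in D272Mut. The part of these markers in the results was not tested. With 80 oocytes in each library, fewer contributing cells and less RNA per cell cannot be told apart.

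Of the 56 genes, 33 reached 1 FPKM in at least 1 library and were tested with the 12980 genes that did so, 21 stayed above 0 but under that level, and Wnt10a and Sfrp5 were listed at 0 in all 12 libraries. The nearest gene outside the limit was Fzd9, whose highest library stood at 0.964 FPKM, and the nearest inside was Sfrp1, at 1.19. Of the 33, 26 reached 1 FPKM in all 3 genotypes, and 7 (Fzd1, Fzd2, Fzd4, Sfrp1, Tcf7l1, Tcf7l2 and Wnt5a) did so in a mutant and not in WT, so the set is tilted towards higher values in the mutants by its own limit.

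In GTMut 17 of the 33 tested genes were higher than in WT (51.5%) and 11 were lower (33.3%), by limma with Benjamini-Hochberg adjustment over all tested genes and an adjusted p below 0.05. Of all 12980 tested genes 38.3% were called higher and 39.2% lower in that comparison. The 28 called genes compare with 77.5% of all tested genes called in either direction. In D272Mut 18 were higher (54.5%) and 11 lower (33.3%), against 36.3% and 39.5% of all tested genes, or 29 against 75.7% in either direction. Rises of at least 2-fold on the tested scale numbered 12 in GTMut and 13 in D272Mut (19.3% and 17.9% of all tested genes), and falls of that size 4 and 0 (9.61% and 5.9%). WT and GTMut libraries did not overlap for 24 of the 33, where 72.9% of all tested genes did not overlap, and WT and D272Mut libraries for 29, where the share was 69.1%. Both comparisons use the same WT libraries. The median log2 fold change was 0.47 in GTMut and 0.41 in D272Mut for the 33 genes, and -0.02 and -0.05 over all tested genes. Quantile normalization moved the latter medians to -0.23 and -0.25 and the share of higher among called genes from 49.4% to 39.2% in GTMut and from 47.9% to 37.4% in D272Mut. Under it, 15 genes of the set were higher and 12 lower in GTMut, and 17 and 13 in D272Mut.

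**Figure D1:**
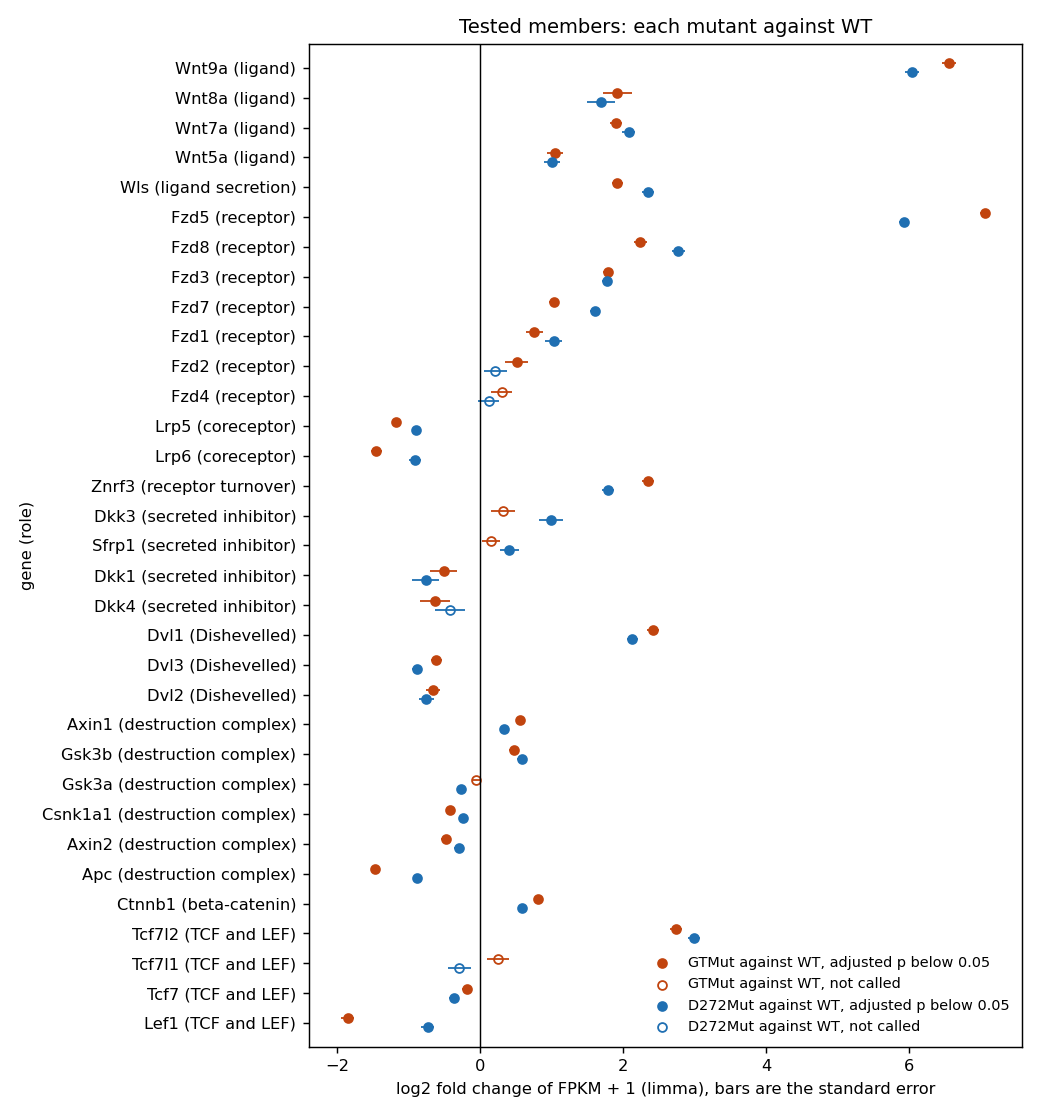
Log2 fold change of FPKM + 1 (x axis) with its limma standard error for the 33 tested genes (y axis, grouped by role), with GTMut against WT in orange and D272Mut against WT in blue, filled where the adjusted p is below 0.05. Wnt9a and Fzd5 stand apart at the right, at 5.93 to 7.06, while Lef1, Apc, Lrp6 and Lrp5 lie farthest to the left in GTMut.

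Among the ligands, 4 of the 19 Wnt genes were tested, and each of the 4 was higher in both mutants. Of all tested genes 38.3% were higher in GTMut and 36.3% in D272Mut. Wnt5a was among the 4 only through mutant libraries that reached 1 FPKM. Wnt9a, a ligand known in mouse from joint formation, rose most. It read 0.825, 0.924, 1.3 and 1.62 FPKM in the WT libraries, 196, 215, 201 and 196 in GTMut and 130.1, 152, 143 and 134 in D272Mut. All 8 mutant libraries were far above the 4 WT libraries, and the mutants did not overlap each other. The means were 1.17 ± 0.37, 202 ± 8.9 and 140.0 ± 9.8, ratios to WT of 173 and 119.8, with log2 fold changes of 6.56 ± 0.10 (adjusted p = 8.72e-16) and 6.04 ± 0.10 (adjusted p = 2.39e-15).

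Wnt7a, a ligand known in mouse for the female reproductive tract, was the most abundant Wnt gene of WT oocytes. It read 5.07, 4.68, 5.14 and 5.31 FPKM in WT libraries, 21.8, 18.3, 22.6 and 24.1 in GTMut and 21.9, 28.9, 23.4 and 24.4 in D272Mut, with no overlap between WT and either mutant. The rises were 1.90 ± 0.09 and 2.08 ± 0.09 on the log2 scale (adjusted p = 1.64e-10 and 7.78e-11). Wnt8a, an early embryonic ligand on chromosome 18, read 1.98, 0.614, 0.916 and 0.971 in WT, 5.52, 4.92, 8.88 and 8.83 in GTMut and 6.02, 6.4, 5.7 and 4.73 in D272Mut. WT replicate 1 was the highest of its group, GTMut fell into a lower and a higher pair, and no mutant library came down to WT. Its log2 fold changes were 1.92 ± 0.20 (adjusted p = 8.28e-07) and 1.69 ± 0.20 (adjusted p = 3.43e-06). Wnt5a, the leading ligand of the branches that do not need beta-catenin, read 0.364, 0.498, 0.708 and 0.492 in WT, 2.07, 2.18, 2.41 and 1.85 in GTMut and 2.15, 1.68, 1.86 and 2.57 in D272Mut. It stayed low in all 3 genotypes, yet without overlap between WT and mutants, and its log2 fold changes were 1.05 ± 0.11 and 1.01 ± 0.11 (adjusted p = 1.33e-06 and 2.09e-06).

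Summed over the 19 genes, Wnt transcripts came to 8.76 ± 0.66 FPKM in WT oocytes, 234 ± 6.8 in GTMut and 174 ± 12 in D272Mut. Wnt7a made up 57.7% ± 2.5 of the WT sum and Wnt9a 13.3% ± 3.9. In GTMut Wnt9a made up 86.1% ± 1.9 and Wnt7a 9.28% ± 1.2, and in D272Mut the shares were 80.4% ± 0.75 and 14.1% ± 0.88. The leading ligand transcript was thus Wnt7a in WT libraries and Wnt9a in mutant libraries. The other 15 ligand genes, among them Wnt4 of granulosa cells, stayed under 1 FPKM in every library. Wls, which carries Wnt proteins to the cell surface, read 5.02, 4.69, 4.94 and 6.16 FPKM in WT libraries, 21.8, 23.3, 24.9 and 20.01 in GTMut and 31.1, 27.7, 32.7 and 30.6 in D272Mut. The 3 genotypes did not overlap, and the rises were 1.92 ± 0.08 and 2.35 ± 0.08 (adjusted p = 5.59e-11 and 7.68e-12). Porcn, the enzyme that attaches the lipid to Wnt proteins, reached no more than 0.160 FPKM in any library and was not tested.

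**Figure D2:**
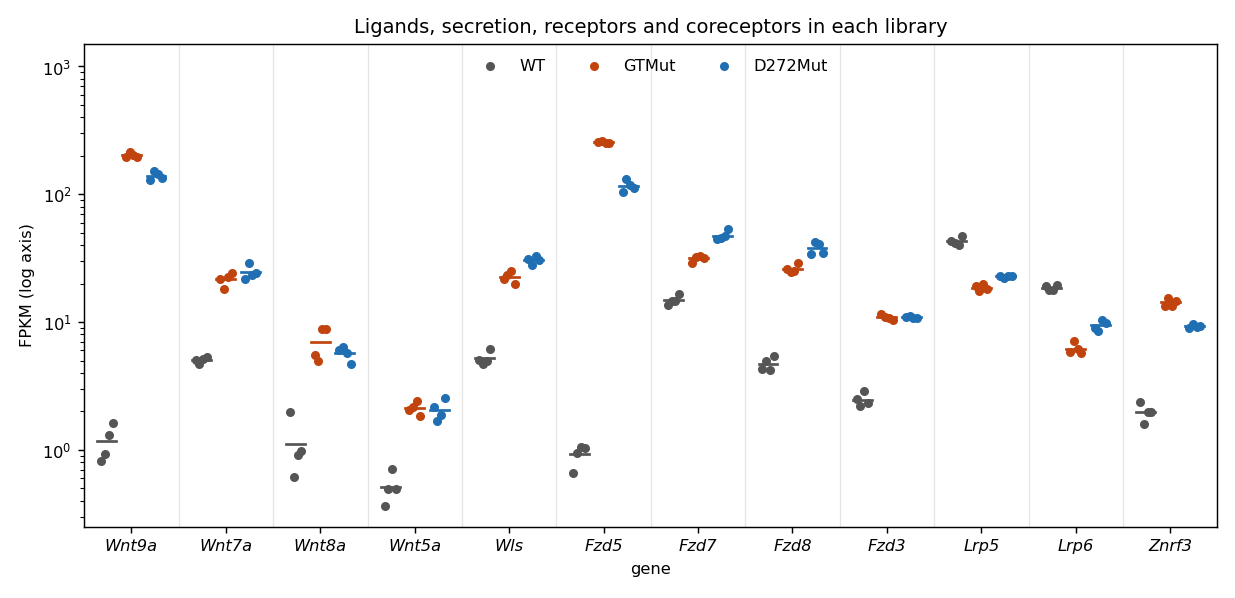
FPKM on a log axis for 12 ligand, secretion, receptor, coreceptor and receptor turnover genes, with 1 point per library (4 each of WT, GTMut and D272Mut) and a line at each mean. Wnt9a and Fzd5 lie near 1 FPKM in WT and above 100 in every mutant library, whereas Lrp5 and Lrp6 are lower in the mutants than in WT.

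Frizzled receptors also stood higher in the mutants. Of 10 genes 7 were tested, of which 6 rose in GTMut and 5 in D272Mut, with none lower, where 38.3% and 36.3% of all tested genes were higher. Fzd1, Fzd2 and Fzd4 were among the 7 only through mutant libraries that reached 1 FPKM. Fzd5, a receptor known in mouse for placental and eye development, showed the largest rise of the set in GTMut. It read 0.664, 0.949, 1.04 and 1.03 FPKM in WT libraries, 256, 262, 251 and 251 in GTMut and 104, 131, 119 and 111 in D272Mut. No 2 genotypes overlapped. Means of 0.922 ± 0.18, 255 ± 5.3 and 116 ± 12 gave ratios to WT of 277 and 126 and log2 fold changes of 7.06 ± 0.07 (adjusted p = 1.2e-16) and 5.93 ± 0.07 (adjusted p = 3.75e-16). With 0.1 in place of 1 as the added constant, the log2 values were 7.98 and 6.85 for Fzd5 and 7.36 and 6.83 for Wnt9a.

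Because Fzd5 and Wnt9a rose together and by the most, their promoter windows are shown, each 250 bases before to 50 after the RefSeq start on GRCm38.p6, the mm10 build that the authors name. Fzd5 lies on chromosome 1 on the minus strand and has 2 exons, with its window at chr1:64737701-64738000. Wnt9a lies on chromosome 11 on the plus strand and has 4 exons, with its window at chr11:59306680-59306979. The sequences run 5′ to 3′ on the strand of the gene, and capitals mark each CG.
Fzd5: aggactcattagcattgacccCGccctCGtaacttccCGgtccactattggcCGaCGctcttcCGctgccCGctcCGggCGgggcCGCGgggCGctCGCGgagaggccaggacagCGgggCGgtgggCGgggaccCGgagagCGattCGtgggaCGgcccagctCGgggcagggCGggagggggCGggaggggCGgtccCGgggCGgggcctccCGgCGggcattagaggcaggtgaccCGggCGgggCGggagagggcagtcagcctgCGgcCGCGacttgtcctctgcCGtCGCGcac
Wnt9a: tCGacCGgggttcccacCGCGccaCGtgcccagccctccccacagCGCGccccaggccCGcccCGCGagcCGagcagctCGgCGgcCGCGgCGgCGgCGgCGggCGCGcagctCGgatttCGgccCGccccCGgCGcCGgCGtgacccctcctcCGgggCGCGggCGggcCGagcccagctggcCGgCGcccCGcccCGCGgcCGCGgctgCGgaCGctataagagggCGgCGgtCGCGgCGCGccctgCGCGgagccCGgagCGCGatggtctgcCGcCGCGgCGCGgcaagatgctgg
The Fzd5 window holds 38 CG dinucleotides at a GC content of 75.7% and the Wnt9a window 58 at 83.3%, where the median of 32851 windows of that length was 7 at 52.7%. CG was not counted apart for the other genes of the set, so these values are not shown to be particular to Fzd5 and Wnt9a. Neither of their windows holds CTTTGAT, a form of the TCF and LEF motif, on either strand, which 3.73% of all windows do. Neither holds TAATTG or TAATTA, the homeodomain core that the oocyte factor NOBOX binds, which 12.4% do. Of the 56 genes 37 had a window, and these letters were found for Wnt5b and Wnt11 (CTTTGAT) and Wnt8b (the homeodomain core), none of which was tested. A match is a run of letters and not a site, and no match says only that these letters are not in the window.

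Fzd7, which in mouse and frog embryos is a widely used receptor, led the family in WT. It read 13.7, 14.6, 14.7 and 16.7 FPKM in WT libraries, 29, 32.3, 33 and 31.9 in GTMut and 44.6, 45.1, 47.3 and 53 in D272Mut, without overlap. Its log2 fold changes were 1.03 ± 0.07 and 1.61 ± 0.07 (adjusted p = 5.65e-09 and 5.24e-11). Fzd8, the closest relative of Fzd5, read 4.27, 4.99, 4.25 and 5.43 in WT, 25.8, 24.7, 25.2 and 28.8 in GTMut and 34.3, 42.4, 41.1 and 34.8 in D272Mut. It rose by 2.24 ± 0.09 and 2.77 ± 0.09 (adjusted p = 1.7e-11 and 2.07e-12), again with no overlap among the genotypes. Fzd3, a receptor of axon guidance and planar polarity, read 2.51, 2.2, 2.87 and 2.31 in WT, 11.6, 11, 10.8 and 10.4 in GTMut and 11, 11.1, 10.8 and 10.7 in D272Mut. The mutants overlapped each other and stood above WT, with log2 fold changes of 1.79 ± 0.07 and 1.78 ± 0.07 (adjusted p = 1.55e-11 and 1.92e-11). Fzd1 read 0.0878, 0.191, 0.143 and 0.113 in WT, 0.825, 0.78, 1.26 and 0.861 in GTMut and 1.76, 1.26, 0.997 and 1.32 in D272Mut. It was low throughout, and limma called it higher by 0.76 ± 0.12 and 1.03 ± 0.12 (adjusted p = 5.63e-05 and 3.13e-06). The authors' deposited log2 ratios are 2.84 and 3.38. Their q-value is listed at 1 for both comparisons, which may stand for no test.

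Fzd2 stood at 0.711 ± 0.18, 1.46 ± 0.44 and 0.988 ± 0.32 FPKM, and its rise in GTMut of 0.51 ± 0.16 (adjusted p = 0.00901) ended under quantile normalization (adjusted p = 0.174). D272Mut was not called for Fzd2 (adjusted p = 0.246), and the mutants were not shown to differ there (adjusted p = 0.143). Fzd4, at 0.619 ± 0.16, 1.01 ± 0.41 and 0.77 ± 0.27, passed in neither mutant (adjusted p = 0.0885 and 0.473). Fzd6, Fzd9 and Fzd10 stayed under 1 FPKM. Summed over the 10 receptors, the level was 24.8 ± 1.7 FPKM in WT oocytes, 328 ± 4.4 in GTMut and 217 ± 15 in D272Mut. Fzd7 made up 60.2% ± 1.2 of the WT sum, and Fzd5 3.71% ± 0.55. Fzd5 made up 77.8% ± 0.72 of the sum in GTMut and 53.6% ± 1.9 in D272Mut, where Fzd7 held 22% ± 2.3 and Fzd8 17.6% ± 1.0.

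**Figure D3:**
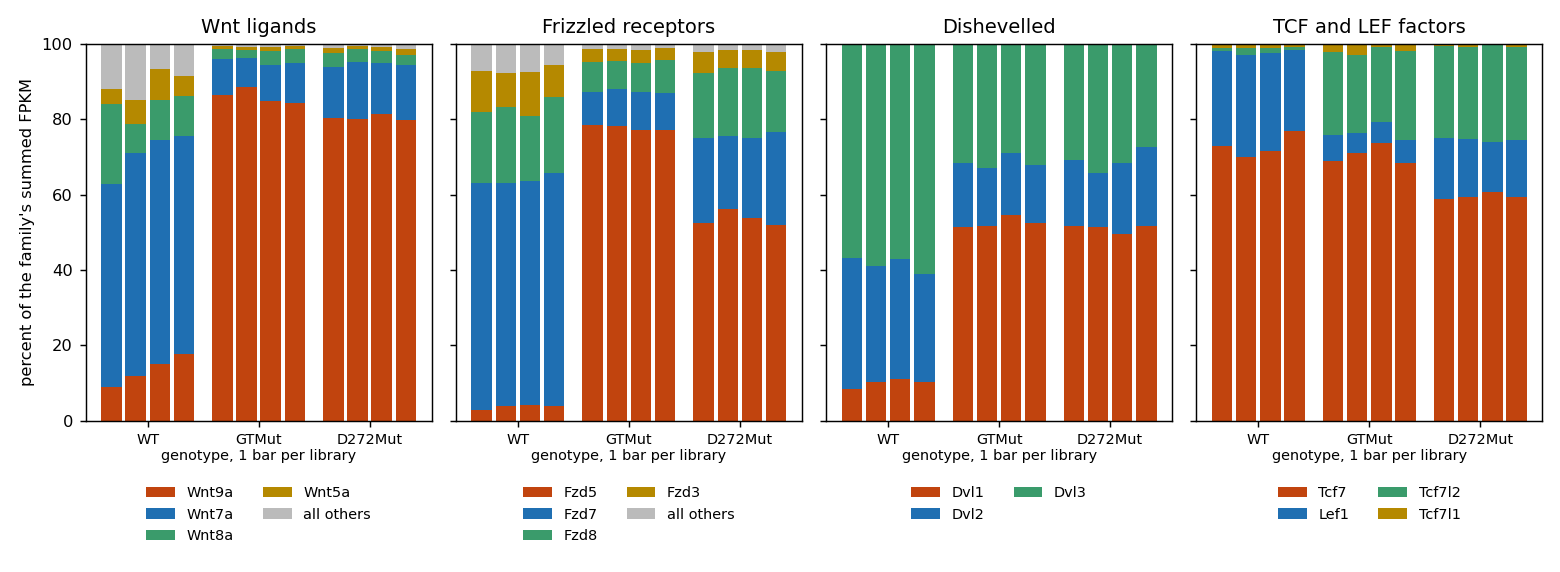
Share of each family's summed FPKM (y axis, percent) held by its genes, with 1 bar per library grouped by genotype, for Wnt ligands, Frizzled receptors, Dishevelled and TCF or LEF factors. Wnt7a, Fzd7 and Dvl3 hold the largest share in the WT bars and Wnt9a, Fzd5 and Dvl1 in the mutant bars, while Tcf7 leads the last family in all 3 genotypes.

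The coreceptors moved opposite to the receptors. Lrp5 read 43.1, 41.6, 40.4 and 46.8 FPKM in WT libraries, 19.1, 17.4, 19.8 and 18 in GTMut and 23.1, 22.1, 22.8 and 23.1 in D272Mut. Lrp6 read 19.3, 17.8, 17.9 and 19.3 in WT, 5.84, 7.07, 6.14 and 5.68 in GTMut and 9.02, 8.46, 10.4 and 9.82 in D272Mut. For both genes the 3 genotypes did not overlap, with WT highest and GTMut lowest. Lrp5 fell in GTMut with a log2 fold change of -1.17 ± 0.05 and in D272Mut with -0.89 ± 0.05 (adjusted p = 1.06e-10 and 2.73e-09), and Lrp6 with -1.45 ± 0.08 and -0.91 ± 0.08 (adjusted p = 4.2e-10 and 8.19e-08). The WT mean was 2.31 times that of GTMut for Lrp5 and 3.01 times for Lrp6. Znrf3, a membrane ubiquitin ligase that removes Frizzled receptors from the surface, read 2.37, 1.6, 1.99 and 1.99 in WT, 13.4, 15.4, 13.4 and 14.7 in GTMut and 8.94, 9.71, 9.16 and 9.39 in D272Mut. It rose in both, by 2.35 ± 0.08 and 1.79 ± 0.08 (adjusted p = 4.55e-12 and 1.09e-10), with no overlap among the genotypes.

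Secreted inhibitors were low. Of 8 Dkk and Sfrp genes 4 were tested, and the sum over the 8 was 6.67 ± 1.5 FPKM in WT oocytes, 5.74 ± 1.1 in GTMut and 8.82 ± 0.93 in D272Mut. Dkk1, which blocks LRP6, stood at 1.99 ± 0.21, 1.16 ± 0.62 and 0.786 ± 0.36 FPKM and was lower in GTMut (-0.51 ± 0.19, adjusted p = 0.0247) and in D272Mut (-0.76 ± 0.19, adjusted p = 0.00229). The GTMut call ended without WT replicate 4, GTMut replicate 2 or GTMut replicate 4 (adjusted p = 0.0609, 0.0505 and 0.0844). Dkk3, a Dickkopf relative with an unsettled place in the pathway, stood at 2.56 ± 0.95, 3.34 ± 0.56 and 5.92 ± 0.66, with a rise in D272Mut (0.99 ± 0.17, adjusted p = 9.41e-05) and no call in GTMut (adjusted p = 0.0971). Without WT replicate 4, Dkk3 was also called in GTMut (adjusted p = 0.0181), as it is in the authors' deposited table (q = 0.0049). Dkk4 stood at 1.64 ± 0.69, 0.68 ± 0.33 and 0.955 ± 0.46, lower in GTMut (-0.63 ± 0.21, adjusted p = 0.0159), a call that ended without WT replicate 3 or GTMut replicate 2 (adjusted p = 0.055 and 0.0502). For D272Mut the adjusted p was 0.0919, and a call appeared without WT replicate 2, without D272Mut replicate 1 and under quantile normalization (adjusted p = 0.0128, 0.0281 and 0.00866). Sfrp1, which binds Wnt proteins, stood at 0.279 ± 0.052, 0.42 ± 0.059 and 0.721 ± 0.34, and its call in D272Mut (0.41 ± 0.13, adjusted p = 0.0132) ended under quantile normalization (adjusted p = 0.334).

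Dishevelled genes, which relay the signal from Frizzled, went different ways. Dvl1 read 3.72, 4.53, 4.77 and 4.56 FPKM in WT libraries, 26.6, 27.3, 28.9 and 28.1 in GTMut and 23.6, 22.9, 19.2 and 24.5 in D272Mut. Dvl3 read 25.2, 26.3, 24.4 and 27.3 in WT, 16.4, 17.5, 15.3 and 17.3 in GTMut and 14.1, 15.3, 12.25 and 13 in D272Mut. Every mutant library was above WT for Dvl1 and below WT for Dvl3. Dvl1 rose by 2.42 ± 0.08 and 2.13 ± 0.08 (adjusted p = 2.62e-12 and 1.25e-11). Dvl3 fell, with log2 fold changes of -0.61 ± 0.07 and -0.88 ± 0.07 (adjusted p = 1.77e-06 and 4.07e-08). Dvl2, at 13.9 ± 1.1, 8.42 ± 0.31 and 7.94 ± 1.5 FPKM, also fell (-0.66 ± 0.10 and -0.75 ± 0.10, adjusted p = 3.22e-05 and 1.01e-05). The sum of the 3 genes was 44.2 ± 0.91, 52.8 ± 0.79 and 44.1 ± 3.8 FPKM. Dvl3 made up 58.5% ± 2.0 of it in WT, and Dvl1 52.6% ± 1.4 in GTMut and 51.1% ± 0.96 in D272Mut, up from 9.96% ± 1.1. Exons of Dvl1 overlap Tas1r3 and those of Dvl2 overlap Acadvl, each on the other strand, and the sources used here do not say whether counting used strand, so reads of the overlaps could belong to either gene.

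Of the 6 genes of the destruction complex 2 rose and 3 fell in GTMut, and 2 rose and 4 fell in D272Mut. The shares of all tested genes were 38.3% higher and 39.2% lower in GTMut, and 36.3% and 39.5% in D272Mut. Apc, the scaffold on chromosome 18, read 35, 32.2, 32.3 and 33.8 FPKM in WT libraries, 11.6, 11.22, 11.9 and 10.71 in GTMut and 17.9, 18.7, 16.2 and 18.1 in D272Mut, with no overlap. It fell with log2 fold changes of -1.47 ± 0.05 and -0.88 ± 0.05 (adjusted p = 9.93e-12 and 3.61e-09), and the WT mean was 2.94 times that of GTMut and 1.88 times that of D272Mut. Axin1, the other scaffold, read 45, 45.8, 44 and 50.1 in WT, 66.6, 66.5, 70.4 and 70.2 in GTMut and 58.3, 57.8, 56 and 61 in D272Mut. It rose by 0.56 ± 0.05 and 0.33 ± 0.05 (adjusted p = 5.53e-08 and 1.51e-05). Axin2, a paralog that is itself a standard target gene of the pathway, read 129, 125, 113 and 127 in WT, 88.6, 89.9, 87.3 and 87 in GTMut and 89.2, 112, 109 and 91.9 in D272Mut. Every mutant library was below every WT library, and the log2 fold changes were -0.48 ± 0.07 and -0.30 ± 0.07 (adjusted p = 1.95e-05 and 0.00122).

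Csnk1a1, the kinase that primes beta-catenin and also on chromosome 18, read 122.6, 117, 119 and 122 FPKM in WT libraries, 92.5, 83.5, 96.4 and 86.8 in GTMut and 96.4, 96.5, 108 and 108 in D272Mut. It fell, with log2 fold changes of -0.42 ± 0.05 and -0.24 ± 0.05 (adjusted p = 4.72e-06 and 0.00096). Gsk3a read 38.2, 40.3, 37.9 and 42.5 in WT, 35.2, 39.8, 39.8 and 37.7 in GTMut and 30.0, 34.5, 35.2 and 31.2 in D272Mut. GTMut and WT libraries overlapped (adjusted p = 0.394), while D272Mut was lower (-0.27 ± 0.06, adjusted p = 0.00102), and under quantile normalization GTMut was called lower too (-0.19, adjusted p = 0.0115). Gsk3b, its paralog, stood lower than Gsk3a at 4.45 ± 0.34, 6.57 ± 0.23 and 7.19 ± 0.37 FPKM and rose in both mutants (0.47 ± 0.07 and 0.59 ± 0.07, adjusted p = 1.81e-05 and 2.31e-06), of which the GTMut call ended under quantile normalization (adjusted p = 0.0858). Ctnnb1, which encodes beta-catenin, was the most abundant gene of the set in all 3 genotypes. It read 169.6, 166, 175 and 172 FPKM in WT libraries, 299, 314, 297 and 286 in GTMut and 259.6, 248, 264 and 251 in D272Mut. The genotypes did not overlap, and it rose by 0.81 ± 0.04 and 0.58 ± 0.04 (adjusted p = 5.62e-11 and 2.56e-09), ratios to WT of 1.75 and 1.5. Its exons overlap those of Ulk4 on the other strand.

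**Figure D4:**
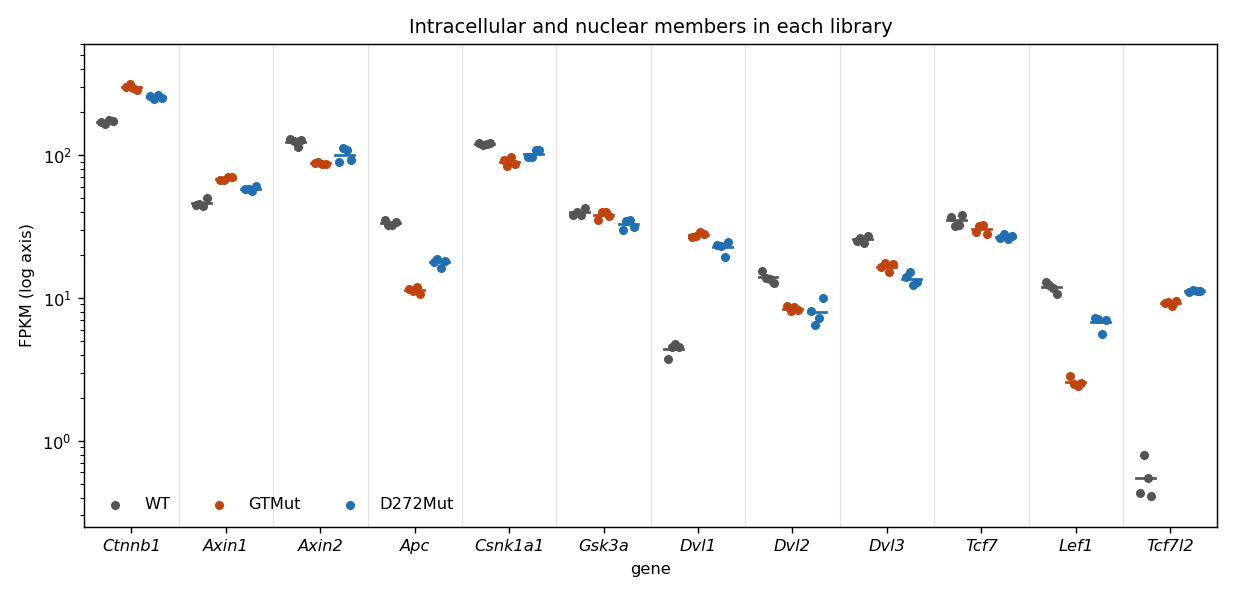
FPKM on a log axis for 12 intracellular and nuclear genes, with 1 point per library (4 each of WT, GTMut and D272Mut) and a line at each mean. Tcf7l2 and Dvl1 lie higher in all 8 mutant libraries than in WT, Apc and Lef1 lower, and the Gsk3a and Tcf7 libraries of WT and GTMut overlap.

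Of the TCF and LEF factors, Tcf7l2 rose most. It read 0.43, 0.797, 0.547 and 0.414 FPKM in WT libraries, 9.28, 9.4, 8.83 and 9.56 in GTMut and 11, 11.4, 11.18 and 11.3 in D272Mut. No genotypes overlapped, and the rises were 2.74 ± 0.08 and 2.99 ± 0.08 (adjusted p = 8.32e-13 and 3.97e-13), ratios to WT of 16.9 and 20.5. Lef1 went the other way, at 12.8, 12.3, 11.7 and 10.6 in WT, 2.85, 2.48, 2.41 and 2.52 in GTMut and 7.24, 7.17, 5.64 and 7.02 in D272Mut. WT was highest, GTMut lowest and D272Mut between them without overlap, and the log2 fold changes were -1.85 ± 0.09 and -0.73 ± 0.09 (adjusted p = 1.21e-10 and 3.36e-06). Tcf7, the most abundant of the 4, read 37.1, 31.9, 32.5 and 38.1 in WT, 28.9, 32.1, 32.5 and 27.9 in GTMut and 26.3, 27.8, 26.1 and 27.1 in D272Mut. WT and GTMut overlapped, and the fall in GTMut (log2 fold change -0.19 ± 0.07, adjusted p = 0.0165) ended without WT replicate 1, WT replicate 4 or GTMut replicate 4 (adjusted p = 0.0518, 0.0571 and 0.056) and is not called in the authors' deposited table (q = 0.0576). D272Mut was lower (-0.36 ± 0.07, adjusted p = 0.00021). Tcf7l1, mainly a repressor, stood at 0.5 ± 0.063, 0.814 ± 0.40 and 0.241 ± 0.19 and was called in neither mutant (adjusted p = 0.184 and 0.13). Without GTMut replicate 3 it was called higher in GTMut (adjusted p = 0.0255), and under quantile normalization lower in D272Mut (adjusted p = 0.00731). The sum of the 4 factors was 47.8 ± 2.8 FPKM in WT oocytes, 43 ± 2.1 in GTMut and 45.1 ± 1.7 in D272Mut. Tcf7l2 held 1.16% ± 0.43 of it in WT, 21.6% ± 1.5 in GTMut and 24.9% ± 0.79 in D272Mut, and Lef1 24.9% ± 2.5, 5.98% ± 0.64 and 15% ± 1.3.

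Set against each other, the mutants differed for 19 of the 33 genes, with 10 higher (19.3% of all tested genes were) and 9 lower (20.2% were) in D272Mut than in GTMut. In either direction 39.6% of all tested genes were called. A difference of at least 2-fold on the tested scale was found for 1 gene upward and 1 downward, Lef1 and Fzd5 (1.55% and 1.81% of all tested genes). Libraries of the mutants did not overlap for 19 genes, where 37.4% of all tested genes did not. This contrast is also the test of whether the 2 mutants differ in their signed difference from WT. It compares their distance from WT only where both lie on the same side of WT. Fzd5 was lower in D272Mut, with a log2 fold change of -1.13 ± 0.07 (adjusted p = 9.69e-08), as were Wnt9a at -0.53 ± 0.10 (adjusted p = 0.000703) and Znrf3 at -0.56 ± 0.08 (adjusted p = 0.000112). These 3 were thus nearer to WT in D272Mut. So were Lef1, Apc, Lrp6 and Lrp5, which were higher in D272Mut than in GTMut by 1.12 ± 0.09, 0.60 ± 0.05, 0.54 ± 0.08 and 0.28 ± 0.05 (adjusted p = 4.36e-07, 2.06e-06, 9.46e-05 and 0.00102). Fzd7, Fzd8 and Wls were farther from WT in D272Mut, higher than in GTMut by 0.57 ± 0.07, 0.53 ± 0.09 and 0.43 ± 0.08 (adjusted p = 2.18e-05, 0.000344 and 0.00125). Between the mutants, Fzd5 thus went one way and Fzd7 and Fzd8 the other. For Fzd3, Wnt5a and Wnt7a the difference was -0.01 ± 0.07, -0.03 ± 0.11 and 0.18 ± 0.09, not called at adjusted p = 0.958, 0.844 and 0.148, which does not show that the mutants are alike there. In no tested gene of the set were the mutants called on opposite sides of WT.

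**Figure D5:**
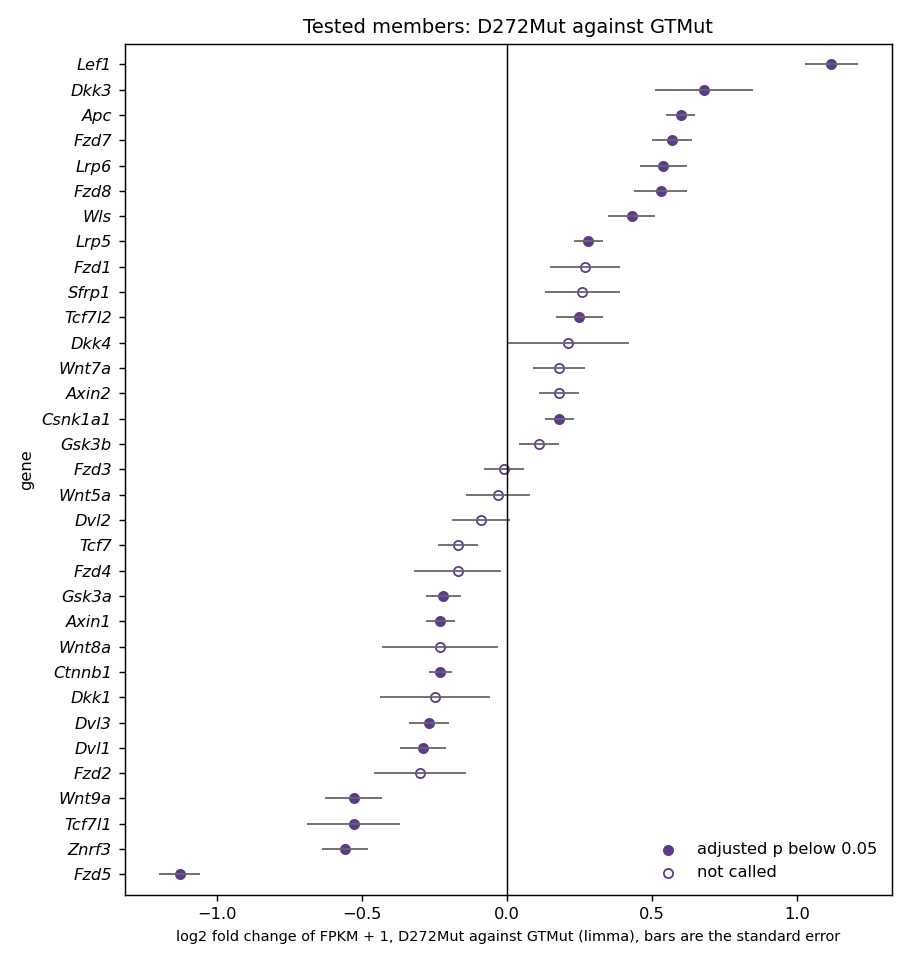
Log2 fold change of FPKM + 1 between the mutants (x axis, D272Mut against GTMut, limma standard error as bars) for the 33 tested genes in order of that value (y axis), filled where the adjusted p is below 0.05. Lef1 at 1.12 and Fzd5 at -1.13 lie at the ends, and the other called genes lie between -0.56 and 0.68.

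Other genes of the pathway, 173 in the table and listed by role, were read in the same fit, and a gene in more than 1 list counts in each list. Of these 117 were tested, with 47 higher, 47 lower and 23 not called in GTMut and with 48, 47 and 22 in D272Mut. Of all tested genes 38.3% were higher and 39.2% lower in GTMut, and 36.3% and 39.5% in D272Mut, so these counts lie near the background, and the counts of the single lists stand against the same shares. Their median log2 fold change in GTMut was 0.01, beside -0.02 for all tested genes. In the list of R-spondins, which boost Wnt signals, their LGR receptors and Rnf43, 4 of 8 were tested, with 1 higher and 3 lower in each mutant. Rspo2, the R-spondin of oocytes, fell from 395 ± 4.1 FPKM to 306 ± 4.7 (GTMut) and 279.9 ± 12 (D272Mut). The receptor gene Lgr6 fell from 14.3 ± 0.63 to 8.78 ± 0.76 and 5.58 ± 1.0, Rnf43, the sister ligase of Znrf3, from 6.89 ± 0.78 to 3.44 ± 0.54 and 4.56 ± 0.40, and Lgr4 rose from 2.71 ± 0.18 to 5.6 ± 0.62 and 5.67 ± 0.42. So the sister ligase genes Znrf3 and Rnf43 changed in opposite directions in both mutants. Of 7 tested antagonists outside the Dkk and Sfrp families 5 rose and 1 fell in GTMut, and 4 rose and 2 fell in D272Mut. Kremen1, a partner of Dickkopf proteins, fell from 51.8 ± 1.1 to 23.5 ± 1.1 and 27.1 ± 0.74, and Shisa2 rose from 1.1 ± 0.26 to 10.8 ± 1.2 and 16.6 ± 1.6. Draxin rose from 5.1 ± 0.68 to 16.7 ± 2.9 in GTMut but fell to 0.93 ± 0.21 in D272Mut.

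Of 30 tested genes of beta-catenin turnover 12 rose and 13 fell in GTMut, and 12 and 14 in D272Mut. Genes named from this list and from the nuclear cofactors were picked by smallest p and all rose, so falling genes are not shown. Csnk1d, a casein kinase gene, rose from 31.9 ± 0.63 FPKM to 126 ± 6.2 and 89.6 ± 5.3, Frat2, a GSK3-binding protein gene, from 1.3 ± 0.26 to 30.6 ± 4.1 and 16.7 ± 1.4, and Tnks2, a tankyrase gene, from 12 ± 0.96 to 45 ± 1.0 and 40.3 ± 1.3. Of 26 tested nuclear cofactors 14 rose and 8 fell in GTMut, and 15 and 9 in D272Mut. Tle4, a Groucho corepressor gene, rose from 7.41 ± 0.69 to 41.5 ± 1.4 and 57.4 ± 3.4, and Pygo2, a coactivator gene, from 48.5 ± 2.0 to 110.0 ± 1.2 and 99.7 ± 4.1. Of 34 tested genes of the planar polarity and calcium branches 10 rose and 18 fell in GTMut, and 9 and 15 in D272Mut. The polarity gene Prickle2 rose from 3.15 ± 0.17 to 59.4 ± 1.4 and 63.9 ± 2.2, while its paralog Prickle1 fell from 184 ± 2.9 to 101 ± 1.2 and 89.8 ± 5.4. Cdh2, which encodes N-cadherin, fell from 15.5 ± 1.2 to 0.835 ± 0.27 and 2.5 ± 0.31.

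Of 18 tested genes widely used as targets of beta-catenin and TCF, 5 rose and 6 fell in GTMut, and 7 and 6 in D272Mut. Of all tested genes 77.5% and 75.7% were called in either direction. The 18 leave out Axin2, Lef1, Tcf7 and Dkk1, all 4 of which were called lower in both mutants. Of these 4, Tcf7 and Dkk1 lost their GTMut call when single libraries were left out. Nkd1, a feedback inhibitor that binds Dishevelled, fell from 111 ± 4.4 FPKM to 42.2 ± 1.7 and 55.9 ± 5.4, Gbx2 from 336 ± 16 to 209 ± 4.8 and 231 ± 14, and Tnfrsf19 from 3.04 ± 0.30 to 0.548 ± 0.15 and 0.701 ± 0.31. Id2, an inhibitor of basic helix-loop-helix factors, rose from 1.52 ± 0.32 to 96.8 ± 7.5 and 43.7 ± 7.6, and Bambi from 0.334 ± 0.066 to 3.02 ± 0.042 and 5.18 ± 0.63. The median log2 fold change of the 18 genes was -0.07 in GTMut and 0.00 in D272Mut, and beta-catenin protein was not measured.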

How the data were processed

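The deposited table holds 12 libraries. Per the submitters' processing notes and design text, the authors trimmed paired reads of 150 bp, mapped them with TopHat2 2.0.13 (mm10) and used Cufflinks 2.2.1 to compute FPKM. The authors also deposited log2 ratios, p-values and q-values from Cuffdiff, used only as an alternative. The labels name both an RNA kit and Smart-seq2 amplification, and both whole ovaries and isolated oocytes. The header lacks a name for the first column, so columns were read by position, and 1 line without content was not analysed here. FPKM holds no totals, so true depth is unknown, counting intervals are not given, and 0 means only listed at 0.

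Genes reaching 1 FPKM in any library entered, as log2(FPKM + 1), one limma 3.58.1 fit over 12 libraries (R 4.3.3, 9 residual degrees of freedom, intensity trend, two-sided, adjusted by Benjamini-Hochberg over 12980 genes). The fit was also run on simulated libraries in which few genes were changed by known amounts. Most genes were called in the real data, so that run checks the code and not the calls. Gene annotation is GENCODE M21 on the same build, and promoters are RefSeq GRCm38.p6. The genes, lists and tests were chosen with earlier results of these data known. Library values are printed, in replicate order, for genes at least 2-fold changed in either mutant or with a mean of at least 20 FPKM, and up to 6 genes per further list were eligible by smallest p. No batch is labelled. Alternatives were another added constant, 2 filters, 2 rescalings, 2 other models, a replicate block, each library left out and the Cuffdiff q-values. Figures used matplotlib 3.10.9.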

Additional observations from a re-analysis of the deposited data

Results flagged for a closer look

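In 5 of 99 groups of 4 libraries, 1 library stood far from the others by Dixon's criterion, where chance gives about 1 in 20. They were Fzd1 in GTMut (highest library 1.26 FPKM), Fzd2 in WT (highest 0.981) and in D272Mut (lowest 0.519), Fzd4 in D272Mut (highest 1.17) and Lef1 in D272Mut (lowest 5.64).

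Because the difference of each mutant from WT was itself compared, 19 genes are listed with the log2 fold change of D272Mut against GTMut (limma, adjusted p below 0.05). Higher in D272Mut were Lef1 (1.12), Dkk3 (0.68), Apc (0.60), Fzd7 (0.57), Lrp6 (0.54), Fzd8 (0.53), Wls (0.43), Lrp5 (0.28), Tcf7l2 (0.25) and Csnk1a1 (0.18). Lower were Fzd5 (-1.13), Znrf3 (-0.56), Tcf7l1 (-0.53), Wnt9a (-0.53), Dvl1 (-0.29), Dvl3 (-0.27), Ctnnb1 (-0.23), Axin1 (-0.23) and Gsk3a (-0.22).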

How the results depend on the processing

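Over the 9 alternatives other than leaving out single libraries, genes of the set called higher ran from 13 to 19 in GTMut and 13 to 21 in D272Mut, and lower from 9 to 12 and 10 to 13; between the mutants they ran from 9 to 12 and 7 to 10. Leaving out single libraries gave 17 to 18 and 17 to 18 higher, 9 to 11 and 11 to 12 lower, and 9 to 12 and 8 to 11 between the mutants. For the other pathway genes it gave 46 to 49 higher and 45 to 48 lower in GTMut, and 45 to 48 and 44 to 47 in D272Mut. With a mean of at least 5 FPKM required, 30 of these in place of 48 were higher in D272Mut, since fewer genes were tested. No called gene of the set changed direction under any alternative. Against WT in GTMut, calls were lost for Fzd2 and Gsk3b (quantile normalization), Tcf7 (Cuffdiff) and Dkk1, Dkk4 and Tcf7 (single libraries left out). In D272Mut, the call was lost for Sfrp1 (quantile normalization). Fzd1 in both mutants and Sfrp1 in D272Mut also lack a Cuffdiff call. Their q-values are listed at 1, which may stand for no test. Between the mutants, Tcf7l2 lost its call with 0.1 as the added constant (adjusted p = 0.17). It also did so without GTMut replicates 1 or 3 or D272Mut replicates 2 or 4 (adjusted p of 0.05 to 0.0656). Tcf7l1 lost its call without D272Mut replicate 3 (adjusted p = 0.0618), and its Cuffdiff q-value is likewise listed at 1. Gsk3a lost its call under Cuffdiff (q = 0.0763). The cause was not tested. With the replicate block, 17 genes of the set were higher and 11 lower in GTMut, 18 and 11 in D272Mut, and 10 and 9 between the mutants, and the other pathway genes numbered 47 and 48, then 47 and 46. Same-numbered libraries did not deviate together (r of -0.357 to 0.094 in 12 pairs), and 7 of 24 best matches were with the own number. Differently numbered libraries gave r of -0.176 to 0.363 in 36 pairs. Such values cannot show what libraries share, and the labels give only the number. Depth limits genes near 1 FPKM, where 1 fragment weighs most.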

Other observations

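Wnt genes lie in conserved neighbouring pairs, 4 of which are in the set with no other protein-coding gene of the table between them. Wnt3a and Wnt9a on chromosome 11 are 16175 bases apart on opposite strands, and Wnt3a was listed at 0 in all WT and GTMut libraries and at a mean of 0.015 FPKM in D272Mut, while Wnt9a rose. On the other side of Wnt9a, Prss38 had means of 0.136 (WT), 0.479 (GTMut) and 0.616 FPKM (D272Mut). The pairs Wnt6 and Wnt10a (chromosome 1), Wnt9b and Wnt3 (chromosome 11) and Wnt10b and Wnt1 (chromosome 15) stayed under 1 FPKM in every library. Beside Fzd5, Ccnyl1 stood at means of 64.9, 55.2 and 49.9 FPKM and Plekhm3 at 8.63, 9.53 and 8.68 in WT, GTMut and D272Mut.

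Of the genes under the test limit, 8 were listed at 0 in the 4 WT libraries and above 0 in a mutant library, namely Dkk2, Fzd9, Sfrp4, Wnt1, Wnt11, Wnt16, Wnt3a and Wnt4. Fzd9, the highest of them, read 0.772, 0.483, 0.964 and 0.535 FPKM in GTMut and 0.401, 0.592, 0.285 and 0.894 in D272Mut, and Wnt11 read 0.22, 0.54, 0.252 and 0.0874 and 0.105, 0.0663, 0.279 and 0.255. These genes were not tested. Among the Frizzled receptors, 6 have 1 exon, of which Fzd1, Fzd7 and Fzd8 rose in both mutants, Fzd2 rose in GTMut and Fzd9 and Fzd10 were not tested, while Fzd5 has 2 exons and Fzd3 has 7.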
